A study of Mus musculus with 2 samples.

Results

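Multidrug ABC transporters were examined in leukemic stem cells (LSCs) of mice with BCR-ABL-driven chronic myeloid leukemia (CML). The set holds 7 genes chosen by symbol, as efflux pumps tied to stem cells and to resistance against kinase inhibitors: Abcb1a, Abcb1b, Abcg2, Abcc1, Abcc3, Abcc4 and Abcc5. All 7 were found among the 23284 gene symbols of the deposited RNA-seq data, and the rule uses no measured value. The study compared CML LSCs with and without STAP-1, a signaling adaptor protein of hematopoietic cells. Stem and progenitor cells of WT mice or of mice with a targeted disruption of Stap1 (STAP-1 KO), both on the C57BL/6J background, were transduced with a retrovirus that carries BCR-ABL and green fluorescent protein (GFP). They were transplanted with helper marrow into lethally irradiated adult congenic recipients, and in the second week the GFP+ CD45.2+ LSK fraction (lineage-negative cells with Sca-1 and c-Kit on their surface) was sorted. The sorted cells of both groups thus carry BCR-ABL, no untransformed or drug-treated cells were analysed here, and each genotype is 1 library. The number of mice behind a library is not given in the sources used here. Differences between the genotypes could therefore not be set against replicate error, and no test was made.

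ABC transporters couple the hydrolysis of ATP to the movement of lipids, metabolites or drugs across a membrane. P-glycoprotein, which mice make from a pair of genes (Abcb1a and Abcb1b), breast cancer resistance protein (Abcg2) and the multidrug resistance proteins of the Abcc subfamily export a wide range of drugs, and several BCR-ABL inhibitors are substrates of P-glycoprotein or of Abcg2. In bone marrow, Abcg2 activity gives hematopoietic stem cells the dye-excluding side population phenotype.

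The sequences just upstream of the transcription start are shown for Abcb1b, the more abundant P-glycoprotein gene, for Abcc5, whose window held the STAT pattern, and for Abcg2, the most abundant transporter, at its first and its last RefSeq start. RefSeq windows of 250 bases on GRCm38.p6 were at hand for 5 of the 7 genes (8 windows, 3 of them for Abcg2 and 2 for Abcc4), and for Abcc1 and Abcc3 there was no entry. Each sequence runs 5′ to 3′ on the strand of its gene and ends at the base before the start, and capitals mark a match, on either strand, to 1 of 4 patterns. These are TTCNNNGAA, which STAT factors bind, the CCAAT box, the GC box spelled GGGCGG, and TGANNNNGC. The last, called the antioxidant pattern below, is a looser spelling than the core of the antioxidant response element. The windows lie at chr5:8797897-8798146 (Abcb1b, plus strand), chr16:20426395-20426644 (Abcc5, minus strand), chr6:58584283-58584532 (Abcg2, plus strand, first start) and chr6:58640296-58640545 (Abcg2, plus strand, last start). The last Abcg2 start lies 56023 bases inside the GENCODE gene and the first 10 bases inside it, and which start was used in these cells cannot be read from gene-level values. The only Abcb1a window lies 92986 bases upstream of the GENCODE gene and is not printed.
Abcb1b: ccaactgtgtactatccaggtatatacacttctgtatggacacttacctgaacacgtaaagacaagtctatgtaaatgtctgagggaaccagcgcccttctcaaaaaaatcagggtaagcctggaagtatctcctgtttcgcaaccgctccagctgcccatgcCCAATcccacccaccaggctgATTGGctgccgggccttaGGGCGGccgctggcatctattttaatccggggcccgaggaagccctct
Abcc5: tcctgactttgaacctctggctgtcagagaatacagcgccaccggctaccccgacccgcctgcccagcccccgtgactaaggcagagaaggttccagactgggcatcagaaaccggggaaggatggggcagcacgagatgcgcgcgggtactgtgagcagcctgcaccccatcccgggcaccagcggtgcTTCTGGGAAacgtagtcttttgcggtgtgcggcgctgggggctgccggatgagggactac
Abcg2, first start: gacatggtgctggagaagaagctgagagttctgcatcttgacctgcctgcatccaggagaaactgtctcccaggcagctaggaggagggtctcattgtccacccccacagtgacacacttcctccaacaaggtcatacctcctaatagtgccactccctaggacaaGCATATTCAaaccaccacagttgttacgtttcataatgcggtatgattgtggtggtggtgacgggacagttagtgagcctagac
Abcg2, last start: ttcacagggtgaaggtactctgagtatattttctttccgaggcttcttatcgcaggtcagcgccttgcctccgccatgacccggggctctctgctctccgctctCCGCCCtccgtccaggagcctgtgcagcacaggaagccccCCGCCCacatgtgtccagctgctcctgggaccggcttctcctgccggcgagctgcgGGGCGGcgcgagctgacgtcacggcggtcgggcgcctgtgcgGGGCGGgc

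The Abcb1b window held CCAAT with its first base 87 and 66 bases upstream of the start and a GC box 48 bases upstream, with 52.8% G or C. In the Abcc5 window the STAT pattern began 60 bases upstream, and this was the only 1 of the 8 windows with it. The Abcg2 window at the last start held 4 GC boxes, which began 146, 106, 50 and 8 bases upstream, and 67.6% of its bases were G or C. The window at the first start held the antioxidant pattern once, 84 bases upstream, and the one between them a pair of GC boxes, 109 and 103 bases upstream. Abcc4 had the antioxidant pattern in both of its windows, and in the one of 72.0% G or C the pattern that begins 25 bases upstream ends at the base before a GC box. Among all 32851 RefSeq windows of this length, 7.02% held the STAT pattern, 33.8% CCAAT, 32.7% the GC box and 35.2% the antioxidant pattern. A match of letters is a description and not a binding site.

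Expression was deposited as FPKM (fragments scaled to transcript length and library size), a level per length that allows genes to be compared within a library. The steps between low values gave effective depths of 7500000 reads in WT LSCs and 10470000 in STAP-1 KO LSCs, and estimated reads and 95% counting intervals below rest on these and cover counting error only. The targeted gene Stap1 had 62.0 FPKM in WT LSCs and 0.309 FPKM in STAP-1 KO LSCs. The sorting antigens were both lower in STAP-1 KO LSCs, Kit with 468 and 30.1 FPKM and Ly6a, which encodes Sca-1, with 285 and 106 FPKM. Markers of mast cells and basophils were lower in 12 of 12 genes and summed to 58150 FPKM in WT LSCs and 6912 FPKM in STAP-1 KO LSCs, which is 8.96% and 1.14% of all FPKM. Early granulocyte markers were higher in 6 of 6 genes, with sums of 571 and 4666 FPKM, and late neutrophil markers were lower in 6 of 6, with sums of 394 and 157 FPKM. Monocyte and macrophage markers (4 of 7 higher) summed to 70.4 and 107 FPKM, megakaryocyte markers (4 of 6 higher) to 196 and 132 FPKM and T cell markers (3 of 5 higher) to 3.89 and 7.41 FPKM. Of 11 LSK and stem cell markers 8 had lower values, with sums of 1099 and 394 FPKM, and the 6 B cell markers summed to 3.60 and 18.0 FPKM, with Pax5 and Ebf1 listed at 0 in both libraries and Cd79b at 3.10 and 17.8 FPKM. The part of these cells in the differences below was not tested, and in bulk RNA fewer cells of a type and less RNA per cell cannot be told apart.

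Across the 7 transporters, 4 were lower by 2-fold or more in STAP-1 KO LSCs with at least 0.1 FPKM in both libraries (Abcc1, Abcc5, Abcb1b and Abcb1a), none was 2-fold higher, and Abcg2 and Abcc4 lay between. Abcc3 fell under 0.1 FPKM in STAP-1 KO LSCs and was not counted, so that 6 of the 7 could be called. Over all 12507 genes at this floor, 22.9% were 2-fold lower and 12.3% were 2-fold higher. The transporters have long transcripts (from 4306 to 6792 bases), and long transcripts as a class had lower ratios in these libraries. Among the 2651 genes of the same length range, 32.6% were 2-fold lower and 5.28% were 2-fold higher. The median log2 ratio of STAP-1 KO over WT (with 0.1 FPKM added to both values) was -1.24 over the 7 transporters, -0.04 over the 10974 genes that averaged 1 FPKM or more, and -0.53 over the 2317 of these in the length range. With the median of genes of like length taken off each ratio, the median of the transporters was -0.98.

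**Figure D1:**
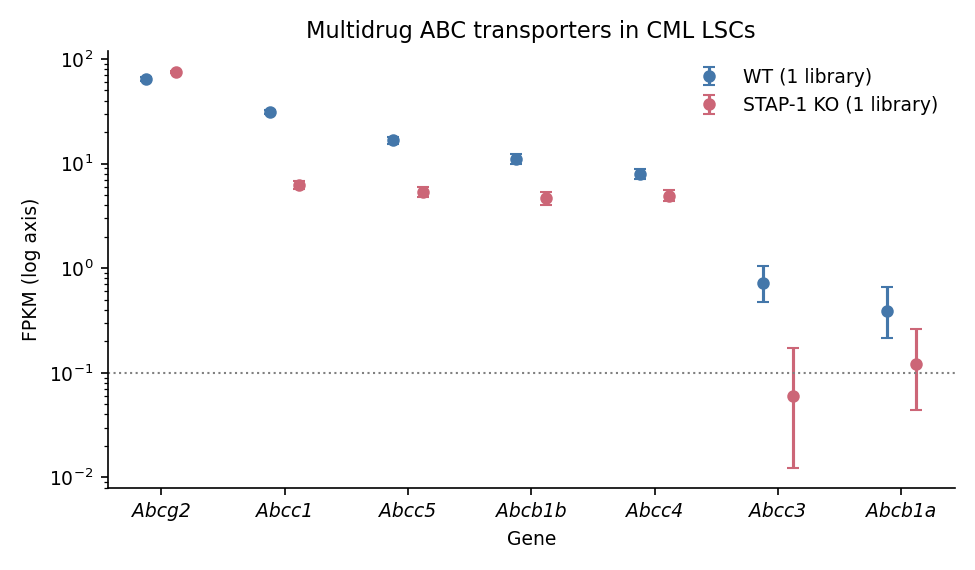
Level of each transporter in WT and STAP-1 KO LSCs, in FPKM on a log axis, with 95% counting intervals as bars and the floor of 0.1 FPKM as a dotted line. Abcg2 stands at 64.7 and 75.1 FPKM in WT and STAP-1 KO LSCs, whereas Abcc1 stands at 31.2 and 6.25 FPKM.

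Abcg2 was the most abundant transporter in both libraries and the only 1 of the 7 with a higher value in STAP-1 KO LSCs. Abcg2 encodes a half-transporter that works as a dimer and exports porphyrins, dyes and kinase inhibitors. It had 64.7 FPKM in WT LSCs (counting interval 62.3 to 67.2, about 2671 reads) and 75.1 FPKM in STAP-1 KO LSCs (72.9 to 77.4, about 4335 reads). The ratio was 1.16 (1.11 to 1.22), well short of 2-fold. Of the genes above 0 FPKM in the WT library, 87.2% had a lower level than Abcg2. Of those above 0 FPKM in the STAP-1 KO library, 88.1% did so. Genes of its length had a median log2 ratio of -0.59, and relative to them Abcg2 was higher by 0.81 on the log2 scale, or by 0.48 when GC content was corrected for as well. Of the genes in the length range, 78.6% had a lower ratio. The gene lies on chromosome 6 from 58584523 to 58695676 on the plus strand of GRCm38 and has 16 exons in its longest transcript.

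The P-glycoprotein genes were unequal partners. Abcb1b had 11.2 FPKM in WT LSCs (10 to 12.4, about 343 reads) and 4.67 FPKM in STAP-1 KO LSCs (4.04 to 5.35, about 200 reads). Abcb1a had 0.392 FPKM (0.213 to 0.654, about 14 reads) and 0.120 FPKM (0.0439 to 0.261, about 6 reads). Abcb1b was thus 28.5-fold above Abcb1a in WT LSCs and 38.8-fold above it in STAP-1 KO LSCs, and it carried nearly all of the P-glycoprotein mRNA in both.

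Abcb1b fell 2.39-fold (counting interval 2.00 to 2.87). Abcb1a was called lower at 3.26-fold, but its interval reaches from 1.18 to 10.3 because so few reads stand behind it. Their summed level was 11.5 FPKM in WT LSCs and 4.79 FPKM in STAP-1 KO LSCs, a ratio of 2.41. Relative to genes of like length the log2 ratio of Abcb1b was -0.98, at the edge of the 2-fold cut-off.

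The genes lie in a row on the plus strand of chromosome 5, Abcb1a from 8660077 to 8748575, Abcb1b from 8798147 to 8866315 and then Abcb4, with 49571 and 27401 bases between neighbours. Abcb4, which encodes the phosphatidylcholine floppase of bile and is no multidrug pump in the set, had 24.2 FPKM in WT LSCs and 9.56 FPKM in STAP-1 KO LSCs, 2.53-fold lower. All 3 genes of the row were lower, by 2.39- to 3.26-fold, at very different levels, and Abcb4, not a P-glycoprotein gene, was the most abundant of them. Of the 75-base stretches of the Abcb1a transcript, 10.6% were identical in Abcb1b and 26.3% differed from it by up to 2 bases, so the split of reads between the pair is uncertain, most of all for the low Abcb1a. With Abcb4 the identical shares were 0.995% for Abcb1a and 0.567% for Abcb1b.

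Abcc1 showed the largest ratio among the transporters above the floor. It encodes multidrug resistance protein 1, an exporter of glutathione conjugates and of leukotriene C4. Its level was 31.2 FPKM in WT LSCs (29.7 to 32.8, about 1541 reads) and 6.25 FPKM in STAP-1 KO LSCs (5.68 to 6.87, about 431 reads). Abcc1 fell 4.99-fold (4.48 to 5.57). Its standing among the genes above 0 FPKM in each library went from above 74.8% of them in WT LSCs to above 48.9% in STAP-1 KO LSCs. Relative to genes of like length its log2 ratio was -1.36, and 8.59% of the genes in the length range had a lower ratio than Abcc1. The gene lies on chromosome 16 from 14361558 to 14475737 on the plus strand and has 31 exons.

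Abcc5 and Abcc4 both encode exporters of cyclic nucleotides and of nucleoside drugs, and they differed in ratio. Abcc5 had 16.6 FPKM in WT LSCs (15.4 to 17.9, about 699 reads) and 5.38 FPKM in STAP-1 KO LSCs (4.81 to 6.02, about 316 reads), and so fell 3.09-fold (2.70 to 3.54). Abcc4 had 8.03 FPKM (7.20 to 8.96, about 332 reads) and 4.95 FPKM (4.39 to 5.55, about 285 reads). Its ratio of 1.62 (1.38 to 1.91) did not pass the cut-off.

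The counting intervals of these 2 ratios do not overlap. Relative to genes of like length the log2 ratio was -1.02 for Abcc5 and -0.10 for Abcc4, so that Abcc4 lay close to the middle of its length class. Both genes are on the minus strand, Abcc5 on chromosome 16 from 20331303 to 20426394 and Abcc4 on chromosome 14 from 118482692 to 118706219.

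Abcc3 encodes an exporter of glucuronides and other organic anions that is best known from liver and gut. It was listed at 0.723 FPKM in WT LSCs (0.472 to 1.06, about 26 reads) and at 0.0598 FPKM in STAP-1 KO LSCs (0.0123 to 0.175, about 3 reads). The ratio was 12.1-fold, with a counting interval from 3.71 to 62.5, and the lower value is at the limit of detection. Abcc3 spans 94343295 to 94392997 on chromosome 11 (minus strand). For the transporters with the fewest reads, Abcc3 and Abcb1a, the intervals overlapped within each library, so that their order cannot be given.

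**Figure D2:**
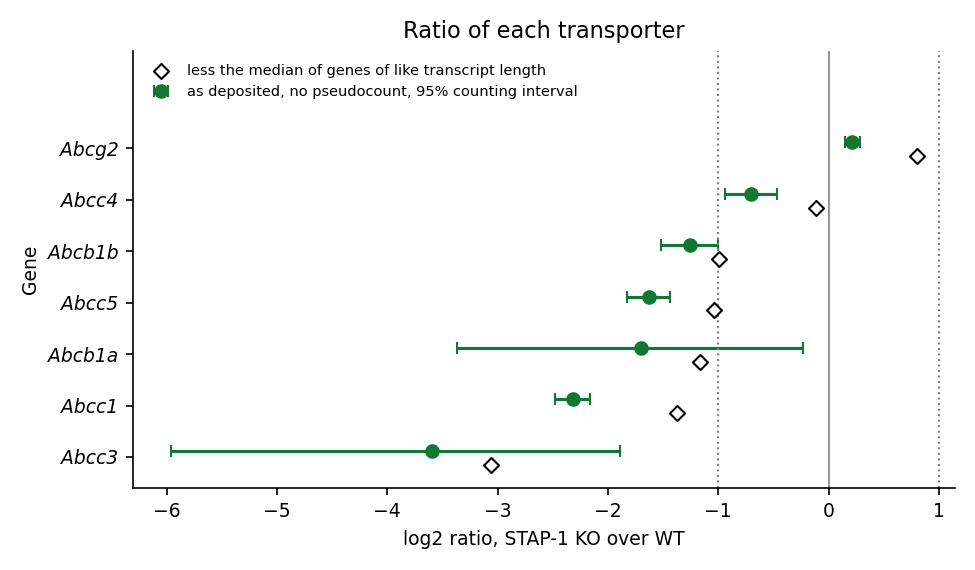
Log2 ratio of STAP-1 KO over WT for each transporter, without a pseudocount. Circles with bars are the deposited values with 95% counting intervals, diamonds are the same ratios less the median of genes of like transcript length, and dotted lines mark 2-fold. The interval of Abcb1a spans from -3.37 to -0.23, and that of Abcg2 from 0.15 to 0.29.

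The step below Abcg2 was larger in STAP-1 KO LSCs, and the steps among the next 4 transporters were smaller. In WT LSCs Abcg2 was followed by Abcc1, Abcc5, Abcb1b and Abcc4, with 2.07-, 1.88-, 1.49- and 1.39-fold between neighbours and no overlap of their counting intervals. An 11.1-fold step then separated Abcc4 from Abcc3 and Abcb1a. In STAP-1 KO LSCs Abcg2 stood 12-fold above Abcc1, the next transporter. Abcc1, Abcc5, Abcc4 and Abcb1b followed within 1.16-, 1.09- and 1.06-fold of each other, and the intervals of neighbours in this run overlapped.

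The 7 levels summed to 133 FPKM in WT LSCs and 96.6 FPKM in STAP-1 KO LSCs. Abcg2 made up 48.7% of the sum in WT LSCs and 77.8% in STAP-1 KO LSCs. The share of the 4 Abcc genes was 42.6% and 17.2%, and that of Abcb1a and Abcb1b together 8.69% and 4.95%. Without Abcg2 the sum was 68.2 FPKM in WT LSCs and 21.4 FPKM in STAP-1 KO LSCs, a ratio of 3.18.

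**Figure D3:**
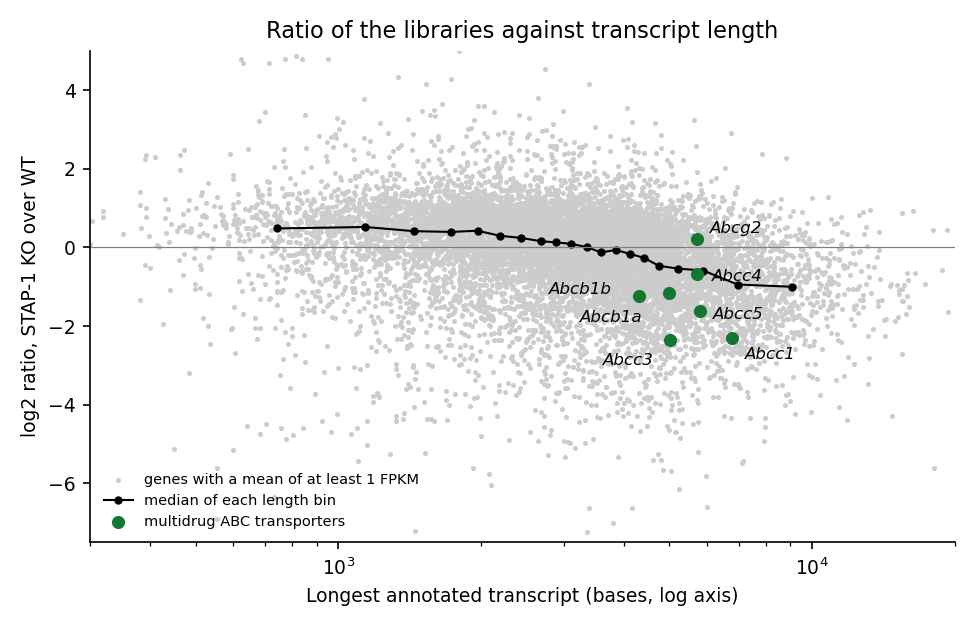
Log2 ratio of STAP-1 KO over WT (0.1 FPKM added to both values) against the length of the longest annotated transcript on a log axis, for genes that averaged 1 FPKM or more (grey) and the 7 transporters (green), with the median of each of 20 length bins as a black line. The line runs from 0.48 in the shortest bin to -1.0 in the longest, Abcg2 lies above it and Abcc4 near it, and 73 genes lie outside the axes.

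The wider ABC family was described for comparison. The files list 50 ABC genes, and of the 43 outside the set 14 were at 0 in both libraries, 9 were 2-fold lower, 1 was 2-fold higher, 14 lay between and 5 more were under 0.1 FPKM in at least 1 library. The median log2 ratio over the 21 that averaged 1 FPKM or more was -0.44, and over the 17 of them outside the Abce and Abcf subfamilies it was -0.78, against -1.24 for the 5 transporters of the set at that level. In the Abca subfamily of lipid transporters 10 of 16 genes were under the floor, 7 of them at 0 in both libraries, 5 were lower and 1 lay between. Among those that were lower was Abca7 (16 FPKM in WT LSCs and 2.39 FPKM in STAP-1 KO LSCs), which handles phospholipids. The cholesterol exporter Abca1 had 3.52 and 0.257 FPKM, and Abcg1, its partner in cholesterol export to lipoproteins, had 25.2 and 6.93 FPKM.

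Abca2, a lipid transporter of endosomes and lysosomes, had 12.1 FPKM in WT LSCs and 2.89 FPKM in STAP-1 KO LSCs. Abca3, known for surfactant lipid in lung, had 6.61 and 1.60 FPKM. These genes have long transcripts too, and the median log2 ratio of the 4 Abca genes that averaged 1 FPKM or more was -2.36 as deposited and -1.40 relative to genes of like length. The 4 genes of the Abce and Abcf subfamilies, which act in translation and transport nothing, all had values above 0 with a median log2 ratio of 0.23 and did not pass the cut-off. Of the Abcg genes above 0, only Abcg2 had a higher value in STAP-1 KO LSCs.

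**Figure D4:**
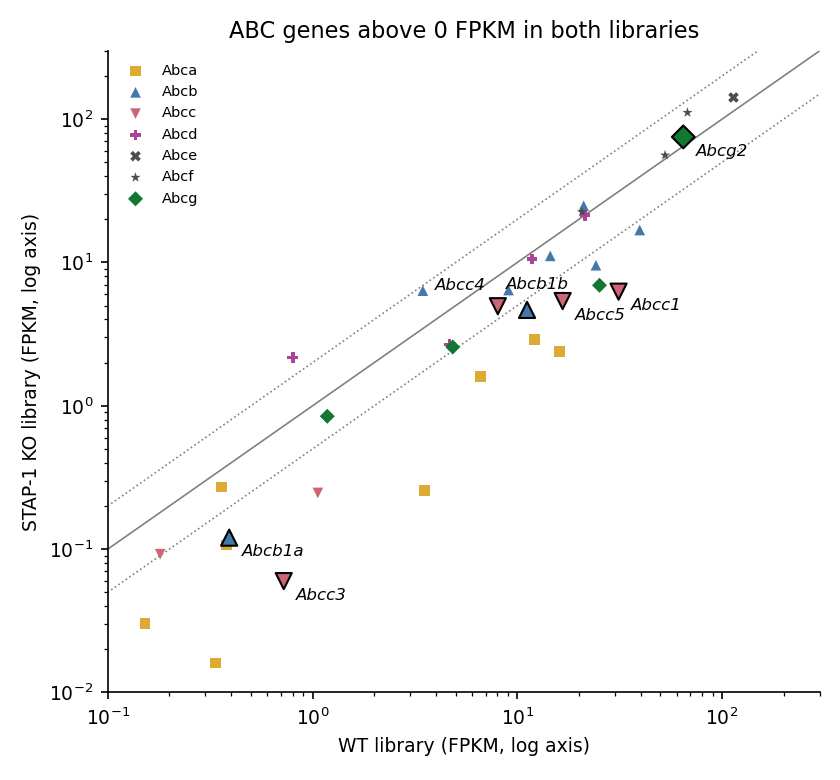
Level of the 34 ABC genes above 0 FPKM in both libraries, with WT LSCs on the x axis and STAP-1 KO LSCs on the y axis (FPKM, log axes), a line at equality and dotted lines at 2-fold. Outlined symbols are the 7 transporters, and only Abcd2 lies above the upper dotted line, at 0.80 FPKM in WT LSCs and 2.17 FPKM in STAP-1 KO LSCs.

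Transcription factors known to act on transporter genes fell into no single direction. For comparison with this and the following lists, 22.9% of all 12507 genes at the floor were 2-fold lower and 12.3% were 2-fold higher. Of 22 genes, 6 were 2-fold lower, 2 were 2-fold higher and 12 lay between, and the median log2 ratio of the 20 that averaged 1 FPKM or more was -0.42 (-0.01 relative to genes of like length). The aryl hydrocarbon receptor Ahr, which induces Abcg2 in several tissues, fell from 49.8 to 5.02 FPKM. Its dimer partner Arnt had 18.3 FPKM in WT LSCs and 8.16 FPKM in STAP-1 KO LSCs, and the hypoxia factor Hif1a had 130 and 36.5 FPKM. Rxra, the partner of many nuclear receptors, had 3.14 and 0.604 FPKM, whereas Myc was higher, with 59.3 and 169 FPKM.

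The xenobiotic receptors of liver were near or at 0, with Nr1i2 (PXR) listed at 0 in both libraries and Nr1i3 (CAR) at 0 in WT LSCs and 0.0922 FPKM in STAP-1 KO LSCs. The regulator of the antioxidant response Nfe2l2 had 77.4 and 62.5 FPKM and its inhibitor Keap1 27.4 and 27.5 FPKM, both short of the cut-off.

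Carriers that bring drugs into cells were called in both directions. Of 22 uptake and other drug carriers, 6 were at 0 in both libraries, 2 were 2-fold higher, 2 were 2-fold lower and 10 lay between. The median log2 ratio of the 12 that averaged 1 FPKM or more was 0.34, with 10 above 0, several of them close to 0. Over all genes at that level 48.3% were above 0. The organic anion carrier Slco3a1 rose from 7.50 to 31.2 FPKM and the carnitine and ergothioneine carrier Slc22a4 from 1.82 to 4.66 FPKM. The organic anion carrier Slco2b1 had 3.10 FPKM in WT LSCs and 0.436 FPKM in STAP-1 KO LSCs, and the folate carrier Slc46a1 had 3.47 and 1.35 FPKM. The nucleoside carrier Slc29a2 had 2.06 and 3.67 FPKM and did not pass the cut-off.

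Genes that supply the substrates of the Abcc exporters were also described. Of 19 genes of glutathione synthesis and conjugation, 4 were 2-fold higher, none was 2-fold lower and 14 lay between, with a median log2 ratio of 0.31 over 18 (0.05 relative to genes of like length). The microsomal enzyme Mgst1 rose from 3.45 to 23.0 FPKM and the transferases Gsto1, Gstt1 and Gstz1 from 101 to 237, from 0.805 to 3.11 and from 16.2 to 35.2 FPKM. Glutathione reductase, Gsr, had 65.1 and 97.5 FPKM, short of the cut-off.

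The leukotriene list held 4 genes on the way to leukotriene C4 and Lta4h, which competes with that way, and of its 5 genes 1 was 2-fold lower (Alox5), 1 was 2-fold higher (Lta4h) and 3 lay between. The 5-lipoxygenase gene Alox5 fell from 771 to 152 FPKM, and Alox5ap and Ltc4s, which act with it and after it, had 265 and 151 FPKM and 4.21 and 3.02 FPKM in WT and STAP-1 KO LSCs. Lta4h, whose enzyme turns the same intermediate into leukotriene B4, rose from 103 to 316 FPKM, and the phospholipase Pla2g4a had 41.3 and 70.9 FPKM. Mast cells make leukotriene C4, and the lower mast cell markers given above accompany the lower Abcc1 and Alox5. Their part in these values was not tested.

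Among 19 genes of cyclic nucleotide synthesis and breakdown, 6 were 2-fold lower, 3 were 2-fold higher and 6 lay between. The median log2 ratio over 11 was -0.60 (-0.54 relative to genes of like length). The adenylyl cyclase Adcy7 fell from 48.9 to 8.65 FPKM. The phosphodiesterases moved both ways, with Pde4b at 7.45 FPKM in WT LSCs and 30.3 FPKM in STAP-1 KO LSCs, Pde1b at 2.57 and 0.487 FPKM, Pde4d at 5.62 and 1.24 FPKM and Pde3b at 12.2 and 3.61 FPKM.

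Of 11 genes whose products anchor, move or phosphorylate the transporters, 3 were 2-fold lower and 8 lay between. The median log2 ratio was -0.41, and it was also -0.41 relative to genes of like length. Moesin (Msn), which ties P-glycoprotein and other membrane proteins to actin, fell from 780 to 167 FPKM. The major vault protein gene Mvp had 70.0 FPKM in WT LSCs and 23.4 FPKM in STAP-1 KO LSCs, and the recycling GTPase gene Rab4a had 103 and 39.1 FPKM. The scaffold gene Slc9a3r1 had 159 and 94.8 FPKM and the kinase gene Pim1, whose product phosphorylates Abcg2, had 41.2 and 28.9 FPKM, both short of the cut-off.

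**Figure D5:**
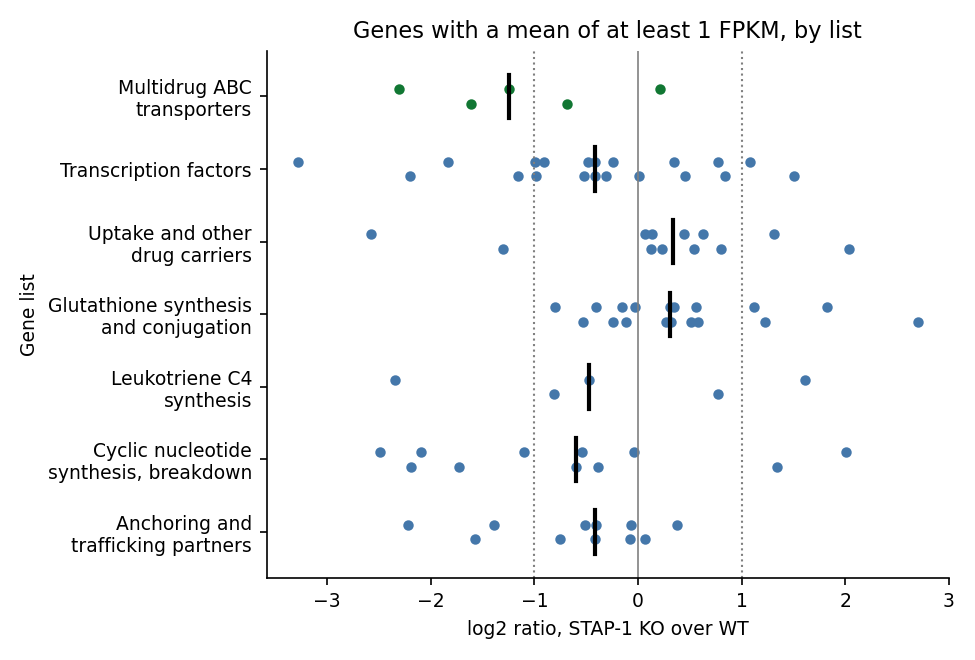
Log2 ratio of STAP-1 KO over WT (0.1 FPKM added to both values) for genes that averaged 1 FPKM or more, by gene list, with 1 point per gene, a bar at the median of each list and dotted lines at 2-fold. The bar stands at -1.24 for the 5 multidrug ABC transporters at this level, at 0.34 for uptake and other drug carriers and at 0.31 for glutathione genes.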

How the data were processed

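RNA-seq was performed on 1 WT and 1 STAP-1 KO library of sorted CML LSCs. Total RNA was extracted with an RNeasy kit per the methods and a miRNeasy kit per the labels, amplified with a SMART-Seq v4 kit and made into libraries with Nextera XT. Reads were mapped to mm10 (GRCm38), and the submitters' processing notes name TopHat2 2.0.13, Bowtie2 2.2.3, SAMtools 0.1.19 and Cufflinks 2.2.1. The authors deposited FPKM values computed with Cuffnorm, in 1 table per library, and the annotation and library scaling are not given in the sources used here. Cuffnorm can scale libraries to each other and divide reads among similar genes, both of which act on the ratios.

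Ratios, counts and medians were computed from the deposited FPKM values in Python 3.11.15 (pandas 2.3.3, numpy 2.4.6, scipy 1.17.1), and plots were drawn with matplotlib 3.10.9. A gene was called at a ratio of 2 or more where neither library was under 0.1 FPKM, without a pseudocount, and log2 ratios in medians used a pseudocount of 0.1 FPKM. Lists were summarised over genes that averaged 1 FPKM or more. Symbols were matched to GENCODE M21 for coordinates, length and GC content (20911 as written, 1923 through an older symbol, 450 not matched). Read depth was estimated from low values of genes with 1 transcript: 47.0% of 283 WT values and 47.7% of 344 STAP-1 KO values were whole reads within a tolerance of 0.01, where chance gives 2%. To estimate reads, FPKM was multiplied by the effective depth and by the transcript length less 211 (WT) or 208 (STAP-1 KO) bases. Intervals are exact 95% Poisson intervals and, for ratios, binomial. At 2000 bases, 3 reads correspond to 0.224 and 0.16 FPKM. The length correction takes off the median log2 ratio of 20 bins of equal gene number. The steps were tested on simulated data.

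The transporters, the gene lists and the alternatives were chosen with earlier results of these data known. All 7 transporters are named, as are Stap1, Kit, Ly6a, 6 other ABC genes (Abcb4 among them) and up to 5 genes per list ranked by absolute log2 ratio with 1 FPKM added. Abcd2, Nr1i2, Nr1i3, Nfe2l2, Keap1, Pax5, Ebf1, Abcb9 and the ABC genes of mitochondria, peroxisomes and ribosomes were named after their values were seen. With 1 library per genotype no test was possible. Alternatives changed the floor, cut-off, pseudocount, scaling, length and GC correction and the genes included. Promoter windows are those of RefSeq.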

Additional observations from a re-analysis of the deposited data

How the results depend on the processing

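No paired analysis was possible because each genotype has 1 library, and no library could be left out. Both value columns carry the number 2, and whether further pairs were made is not given in the sources used here. The number of transporters that were 2-fold lower was 4, and it was from 3 to 5 without a floor, at a floor of 1 FPKM, at a 1.5-fold cut-off, under 3 scalings and under both corrections. Over all genes, 22.9% were lower in the main setting, 32.8% at a 1.5-fold cut-off and from 19% to 24.5% under the others of these. At a 4-fold cut-off it was 1 (Abcc1), with 8.56% of all genes lower. None was higher under any of these alternatives. The median log2 ratio of the 7 transporters was -1.24 as reported, -1.62 at a pseudocount of 0.01 FPKM, -0.70 at 1 FPKM, -0.98 corrected for transcript length and -0.98 for length and GC content together, and from -1.43 to -1.20 under the rest. None of the 49 alternatives for single transporters reversed a ratio, and 13 moved it beyond its counting interval. Under the length correction Abcb1b no longer passed 2-fold, and Abcc5 no longer did after length and GC content. Depth limits Abcb1a and Abcc3, with 6 and 3 estimated reads in STAP-1 KO LSCs.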

Other observations

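ABC genes that serve organelles rather than drug export gave mixed values. Of the mitochondrial exporters, Abcb10, which is tied to heme synthesis in erythroid cells, had 39.6 FPKM in WT LSCs and 16.8 FPKM in STAP-1 KO LSCs, 2.35-fold lower. Of 8 erythroid markers 4 were 2-fold lower and 1 was 2-fold higher, with sums of 2602 and 1293 FPKM, and their part in the Abcb10 value was not tested. The alpha-globin genes among these markers were called in opposite directions. Hba-a1 had 34.8 FPKM in WT LSCs and 380 FPKM in STAP-1 KO LSCs, and Hba-a2 had 772.5 and 15.9 FPKM. How reads were split between these similar genes was not tested. Abcb8 had 21.1 and 24.9 FPKM, and the porphyrin carrier Abcb6 had 14.5 and 11.1 FPKM, both short of 2-fold. The lysosomal peptide transporter gene Abcb9 had 3.46 and 6.36 FPKM. Peroxisomal fatty acid import was represented by Abcd3 (21.4 and 21.3 FPKM) and Abcd2, which was 2.71-fold higher in STAP-1 KO LSCs. The ribosome recycling factor gene Abce1, at 113 FPKM in WT LSCs and 143 FPKM in STAP-1 KO LSCs, was the most abundant ABC gene in both.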
